A study of Mus musculus with 42 samples.

Results

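Untreated pre-B cell lines carrying the hypomorphic Mre11A/A genotype were set against untreated lines that lack 1 of 3 chromatin factors of the DNA break response. The comparison took the 12 untreated arrays of 4 genotypes out of 42 arrays in the series. There were 3 Mre11A/A arrays, and 9 arrays of 53bp1-/-, H2ax-/- and Mdc1-/- lines with 3 of each. Each array was 1 cell line, collected at 2 h after mock treatment in place of irradiation. All 12 lines share their making: bone marrow of mice aged 3 to 5 weeks that carried the Em-Bcl2 transgene had been transformed with the pMSCV-v-abl retrovirus. Every group therefore carries an active Abl kinase and extra Bcl2, a survival protein. Mre11A/A is named a hypomorph in the labels, an allele that keeps part of a gene's function, whereas the other 3 genotypes are labelled as -/-. The series was designed around responses to ionizing radiation, whereas the levels described here are those of cells that were not irradiated.

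Mre11, Rad50 and Nbn form a complex that binds the ends of DNA double-strand breaks and activates the kinase Atm. Atm phosphorylates the histone variant H2ax around the break, Mdc1 binds that mark, and 53bp1 collects on the marked chromatin and shields the ends from resection. Pre-B cells make such breaks themselves when the Rag recombinase cuts immunoglobulin genes. The comparison thus sets a defect in the sensor of DNA ends beside defects in the chromatin arm downstream of it.

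Values are MAS5 signals, an array intensity on a linear scale. Differences are Mre11A/A minus the mean of the 3 chromatin-factor genotypes in log2(signal + 16), which understates differences of genes with low signals. Of 10472 autosomal genes tested with limma, 293 passed an adjusted p of 0.05, which is 2.8% of the genes tested, and they are called here. Of these, 139 were higher in Mre11A/A lines (1.33%) and 154 lower (1.47%). The count was 119, 144 and 103 without Mre11A/A line 1, 2 and 3 in turn, and 138 without the H2ax-/- genotype. With 3 arrays a group the number of arrays limits the precision, and the p-values rest on the spread between these lines. In 211 of the 293 the 3 Mre11A/A arrays lay outside the range of the 9 others, 96 above and 115 below. Over all genes tested 501 had this pattern (4.78%), above in 2.41% and below in 2.38%.

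Most pre-B markers were high in all 12 lines, and Mre11A/A lines 2 and 3 stood apart in sex-linked genes. All 14 pre-B markers read on the arrays passed the filter on low signals, which needs 3 of the 12 arrays. Their summed signal was 115534 to 125525 in Mre11A/A lines and 110449 to 138896 in the others. Bright genes such as Cd24a and Vpreb1 make up much of that sum. Rag1, Rag2 and Dntt averaged 315, 162 and 477 in Mre11A/A lines and 975, 452 and 3461 in the others. Over the 12 arrays the lowest Rag2 signal was 27.8. T cell markers passed the filter for 4 of 15 genes, myeloid markers for 6 of 17, erythroid and megakaryocyte markers for 3 of 9, stromal markers for 6 of 14 and mast, basophil and NK markers for 3 of 14. The summed T cell markers were 4635 to 6010 in Mre11A/A lines and 2215 to 4745 in the others, most of it Cd2 (4654 and 2738 on average). Zap70 (274 and 255), Cd28 (197 and 77.7) and Cd8a (87.4 and 116) also passed the filter. The defining genes Cd3e and Cd3d averaged 7.66 and 4.50 in Mre11A/A lines, against 18.3 and 6.50 in the others. Both were below the filter, so no direction is read from them. Xist, the transcript that silences an X chromosome in females, read 30.5 and 4.84 in Mre11A/A lines 2 and 3, and Eif2s3y, a Y-linked gene, read 2466 and 2799. Mre11A/A line 1 and all 9 other lines had Xist at 9155 or more and Eif2s3y at 31.1 or less. Genes on the X and Y chromosomes were left out for this reason. With the sex of the line as a covariate, which leaves the genotype difference to rest on Mre11A/A line 1, 33 genes were called (7 higher, 26 lower), and 24 of them are among the 293. Of 55 called genes chosen for naming, 10 were called with this covariate: Zfp760, Ctse, Ap1s3, Zfp52, Mre11a, BC018473, Zfp948, H2ax, Tmem87a and Sox4. The part of line sex in the remaining calls was not tested. The 12 arrays were chosen in part because they share 18S rRNA control levels (62.8 to 140.0 at the 5′ probe), so those levels are a description. The 3′ to 5′ ratio of Gapdh, a measure of RNA integrity, was 0.819 ± 0.017 in Mre11A/A lines and 0.839 ± 0.012 in the others (SD, n = 3 and 9, two-sided exact permutation p = 0.05, where the smallest possible p is 0.00455), and its part in the results was not tested.

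Mre11a, the targeted gene, was the first check. Its signal was 706, 535 and 462 in Mre11A/A lines, against 1215 to 1422 (median 1348) in the 9 chromatin-factor lines. All 3 lay below all 9, and the difference was -1.23 ± 0.11 (SE, adjusted p = 0.000175). Mre11a was called under each of 28 alternatives, including the covariate for sex (-0.90, adjusted p = 0.0126). A second, dimmer Mre11a probe set went the other way, with means of 252 in Mre11A/A lines and 173 in the others. The RefSeq promoter of Mre11a (GRCm38.p6, chr9:14784404-14784703, plus strand, 250 bases before to 50 after the start) is shown for the gene that defines the lines. Capitals mark matches, on either strand, to an ETS-type core spelled CCGGAA and to the CCAAT box.
Mre11a: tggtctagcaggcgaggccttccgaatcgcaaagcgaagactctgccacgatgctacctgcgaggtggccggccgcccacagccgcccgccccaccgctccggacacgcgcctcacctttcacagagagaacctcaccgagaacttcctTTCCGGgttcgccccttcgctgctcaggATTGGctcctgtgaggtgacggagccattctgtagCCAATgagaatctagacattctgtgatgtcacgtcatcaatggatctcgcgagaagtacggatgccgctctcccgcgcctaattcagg
The window held 1 match to the ETS-type core, which is present in 14.9% of 32851 promoters of the same length, and 2 matches to the CCAAT box, present in 37.4%.

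The partners of Mre11 were not called. Rad50 had a difference of 0.02 ± 0.08, Nbn of -0.14 ± 0.08, the kinase Atm of 0.07 ± 0.13 and the end-joining kinase Prkdc of 0.03 ± 0.14 (SE). Of 16 genes in the list of the Mre11 complex and damage kinases, Mre11a was the 1 called (6.25%, against 2.8% of all genes). The list had a median of 0.02, against 0.0025 over all genes tested. A second Atm probe set split the genotypes: it averaged 1136 in Mre11A/A and 1097 in 53bp1-/- lines, but 311 in H2ax-/- and 292 in Mdc1-/- lines.

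By the probe set used for each, the genes of the 3 mutated chromatin factors were lowest in the lines that carry the mutation. H2ax read 10579, 10234 and 11889.7 in Mre11A/A lines, 11128, 10974 and 12743 in 53bp1-/- lines, 10249.7, 11534 and 10369.5 in Mdc1-/- lines and 87.9, 18.7 and 51.8 in H2ax-/- lines. Its called difference of 2.46 rests on the H2ax-/- lines alone, and without that genotype it was -0.03 (adjusted p = 0.891). Mdc1 read 559.8, 469 and 592 in Mre11A/A lines and 13.4, 176 and 22.04 in Mdc1-/- lines, and its overall difference of 1.24 was not called (adjusted p = 0.165). Trp53bp1, which encodes 53bp1, read 1686, 1824 and 1656 in Mre11A/A lines, 1823, 1765 and 1660.2 in H2ax-/- lines, 2574, 2164 and 2732 in Mdc1-/- lines and 1291, 1018 and 753 in 53bp1-/- lines. The 53bp1-/- lines lay below all 9 other arrays, and the overall difference of 0.08 was not called (adjusted p = 0.822). Another Trp53bp1 probe set was also lowest in 53bp1-/- lines, with a mean of 387. A dimmer one was not, with means of 130 in 53bp1-/-, 109 in Mre11A/A, 107 in H2ax-/- and 153 in Mdc1-/- lines. Among 17 genes of chromatin factors at breaks, H2ax was the 1 called (5.88%, against 2.8% of all genes). The ubiquitin ligases Rnf8 (0.13) and Rnf168 (0.06) and the 53bp1 partner Rif1 (0.10) were not called.

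A pair of neighbouring zinc-finger genes had some of the clearest increases. Zfp52 read 3213, 2610.2 and 3619.9 in Mre11A/A lines, against 285 to 626 (median 443) in chromatin-factor lines (difference 2.84 ± 0.16, SE, adjusted p = 4.01e-06). Zfp948, the next tested gene on chromosome 17, read 349.6, 596 and 540.5, against 55.0 to 148 (median 92.6) (difference 2.29 ± 0.21, SE, adjusted p = 0.000193). For both genes the 2 groups did not overlap, and both passed against each of the 3 genotypes, without each array in turn and with the covariate for sex (2.88 and 1.84). Their RefSeq promoters (GRCm38.p6, Zfp52 at chr17:21535289-21535588 and Zfp948 at chr17:21566728-21567027, both plus strand) are shown because the genes lie side by side and rose together, with capitals as above.
Zfp52: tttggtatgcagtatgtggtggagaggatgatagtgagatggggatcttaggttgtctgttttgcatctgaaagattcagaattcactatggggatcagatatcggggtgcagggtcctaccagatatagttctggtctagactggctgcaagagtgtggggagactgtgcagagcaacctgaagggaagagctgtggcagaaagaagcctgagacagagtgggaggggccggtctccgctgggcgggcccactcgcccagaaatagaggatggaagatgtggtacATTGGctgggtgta
Zfp948: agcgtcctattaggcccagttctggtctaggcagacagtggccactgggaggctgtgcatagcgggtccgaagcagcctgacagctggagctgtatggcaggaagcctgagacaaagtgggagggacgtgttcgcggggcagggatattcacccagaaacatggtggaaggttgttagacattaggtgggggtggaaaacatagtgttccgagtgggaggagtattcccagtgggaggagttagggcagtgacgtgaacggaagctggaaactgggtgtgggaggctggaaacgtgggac
The Zfp52 window held 1 CCAAT match, and the Zfp948 window held no match to either motif or to the TATA box spelled TATAAA, which is in 13.6% of promoters. Zfp52 was also high in the other untreated genotypes of the series, at 1279 to 2907 in WT, 1294 to 1823 in Atm-/- and 1816 to 3623 in Scid lines. Zfp948 was 96.6 to 232 in WT and 97.0 to 205 in Atm-/- lines, below all 3 Mre11A/A lines. In Scid lines Zfp948 was 123 to 355, with line 1 above Mre11A/A line 1. WT, Atm-/- and Scid arrays had higher 18S control levels (309 to 24907 at the 5′ probe, against 62.8 to 140.0 on the 12 arrays compared here), so their values are given as a description only.

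More zinc-finger genes were among the largest increases. Zfp994 read 409.6, 332 and 368 in Mre11A/A lines, against 31.3 to 105 (median 61.7), a difference of 2.27 ± 0.26 (SE, adjusted p = 0.00103). With Zfp943 (0.77), Zfp944 (1.17) and Zfp758 (0.69) it forms a run of 4 consecutive tested genes on chromosome 17 that all rose, the longest run of called genes. Zfp991 rose by 2.43 and its neighbour Gm13238 by 2.50 on chromosome 4, but a second Zfp991 probe set went the other way (-1.02, with means of 174 in Mre11A/A lines and 374 in the others). Zfp429 rose by 2.19 beside Zfp874a (2.02) on chromosome 13. The opposite was seen for Zfp760, also on chromosome 17: it read 2.01, 38.1 and 77.9 in Mre11A/A lines, against 1059 to 2078 (median 1329), a difference of -4.96 ± 0.37 (SE, adjusted p = 4.94e-05). Counted by symbol, a grouping chosen after the values were seen, 13 of 266 tested Zfp genes rose and 4 fell (6.39%, against 2.8% of all genes), with a median of 0.02. Zfp994 was called without each array in turn but not with the covariate for sex (adjusted p = 0.051). Zfp991 was lost without any 1 Mre11A/A line (adjusted p up to 0.098), Gm13238 without any 1 Mre11A/A line, 53bp1-/- line 2 or H2ax-/- line 2 (up to 0.123) and Zfp429 without any 1 Mre11A/A line, 53bp1-/- line 2, H2ax-/- line 2 or Mdc1-/- line 1 (up to 0.122).

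**Figure D1:**
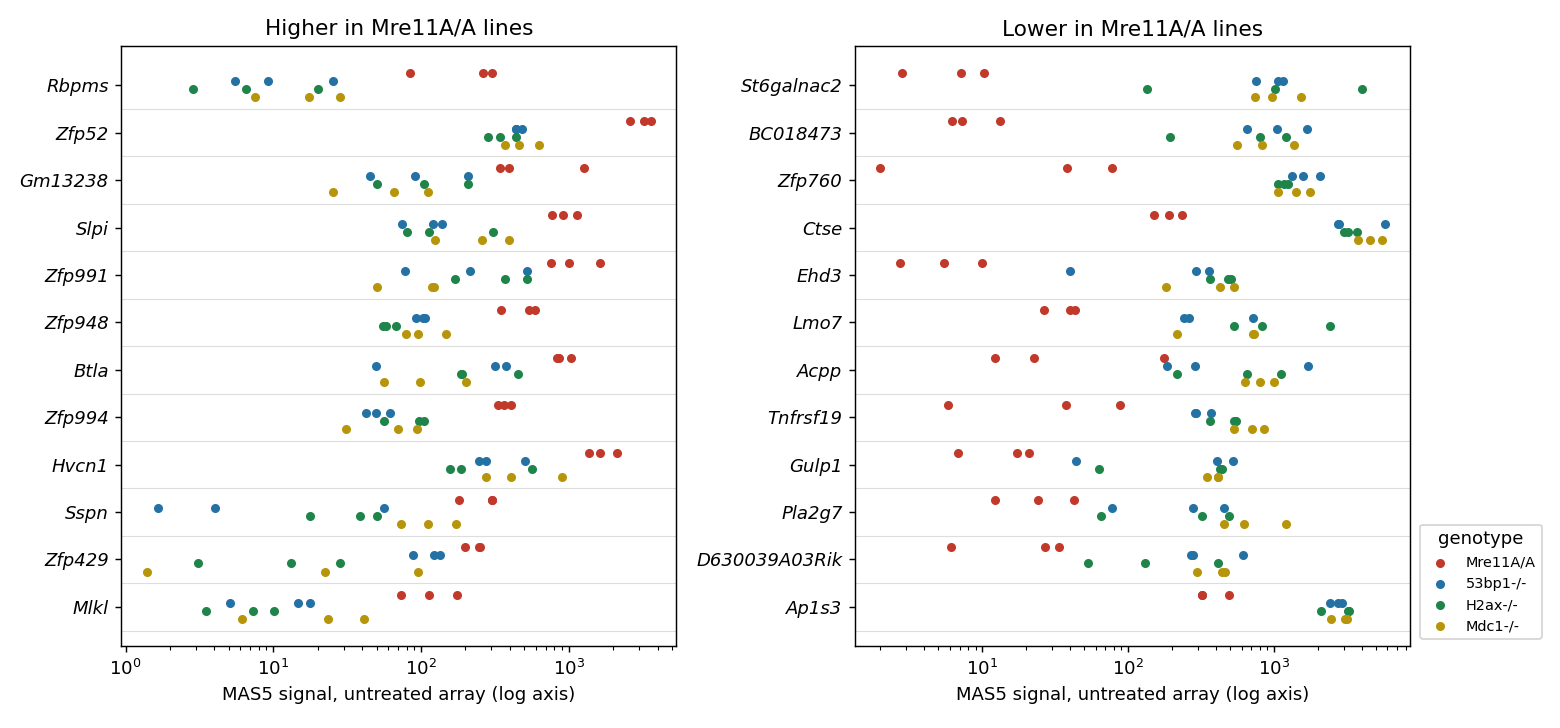
MAS5 signals on a log axis of the 12 largest increases (left) and 12 largest decreases (right) whose groups did not overlap. Each point is 1 untreated array, with Mre11A/A above 53bp1-/-, H2ax-/- and Mdc1-/- lines in each gene's band, and the 3 Mre11A/A points lie to 1 side of all 9 others.

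Apobec3, a cytidine deaminase that restricts retroviruses, had the smallest p of all genes (named after its values were seen). It read 1742, 1483 and 1863 in Mre11A/A lines and 391 to 470.0 (median 424) in chromatin-factor lines, a difference of 1.94 ± 0.09 (SE, adjusted p = 1.64e-06). Its 9 lower values were tightly grouped and far from the 3 higher ones. In the remaining genotypes it varied from line to line, at 286 to 2202 in WT, 365 to 1261 in Atm-/- and 345 to 527 in Scid lines. Cbx7, the next tested gene and a Polycomb protein, also rose, by 1.26 (adjusted p = 0.014).

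The other large increases were in genes of varied function. Rbpms, an RNA-binding protein, read 265, 84.2 and 303 in Mre11A/A lines, against 2.88 to 28.1 (median 9.22) (2.87 ± 0.41, SE, adjusted p = 0.00461). Slpi, a secreted inhibitor of serine proteases, read 1144, 915 and 767, against 74.7 to 393 (median 124) (2.47). For both genes the groups did not overlap. Both were called without each array in turn, and neither with the covariate for sex (adjusted p = 0.0738 for Rbpms and 0.108 for Slpi). Rbpms and Mlkl were above the array median on 3 of the 12 arrays, the Mre11A/A ones, so they passed the filter on low signals only through the group where they are high and had to differ. Btla, an inhibitory receptor of lymphocytes, rose by 2.28, Hvcn1, a voltage-gated proton channel, by 2.25, Sspn, a membrane protein of the dystrophin complex, by 2.24, and Mlkl, the executor of necroptosis, by 2.18. Some of these calls were lost when 1 array was left out. Across those fits the differences were 2.01 to 2.44 for Btla, 2.12 to 2.47 for Sspn, 2.09 to 2.44 for Hvcn1 and 1.90 to 2.45 for Mlkl. Btla was lost without any 1 Mre11A/A line, H2ax-/- line 1 or 2 or Mdc1-/- line 3 (adjusted p up to 0.137), Sspn without any 1 Mre11A/A line (up to 0.102), Hvcn1 without Mre11A/A line 1 or 3 (up to 0.084) and Mlkl without Mre11A/A line 2 or 3 (up to 0.0654).

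The 2 largest decreases lay side by side on chromosome 11, next to another gene that fell. St6galnac2, a sialyltransferase that acts on O-linked glycans, read 7.12, 10.3 and 2.81 in Mre11A/A lines, against 134 to 4036 (median 1018) in chromatin-factor lines. BC018473 read 6.19, 13.2 and 7.22, against 192 to 1672 (median 831). St6galnac1, a second sialyltransferase of the same family, read 49.5, 39.1 and 87.1, against 129 to 303 (median 238). In all 3 genes every Mre11A/A array lay below every other array, with differences of -5.42 ± 0.70, -5.06 ± 0.47 and -1.72 ± 0.27 (SE, adjusted p = 0.00243, 0.000228 and 0.00709). St6galnac2 and BC018473 were above the array median on the 9 chromatin-factor arrays alone. Both thus passed the filter on low signals only through the group where they are high. With the covariate for sex BC018473 was called (adjusted p = 0.022) and St6galnac2 was not (adjusted p = 0.0951), at a difference of -5.38. The other untreated genotypes were also below all 9 chromatin-factor lines: St6galnac2 was 2.56 to 7.15 in WT, 9.30 to 21.7 in Atm-/- and 1.33 to 7.63 in Scid lines, and BC018473 was 4.71 to 38.1, 6.77 to 49.9 and 8.41 to 71.2 in those lines. The 9 chromatin-factor lines were thus the ones in which the 3 genes were high. A second St6galnac2 probe set, below the filter on low signals, averaged 26.4 in Mre11A/A and 30.6 in the other lines.

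**Figure D2:**
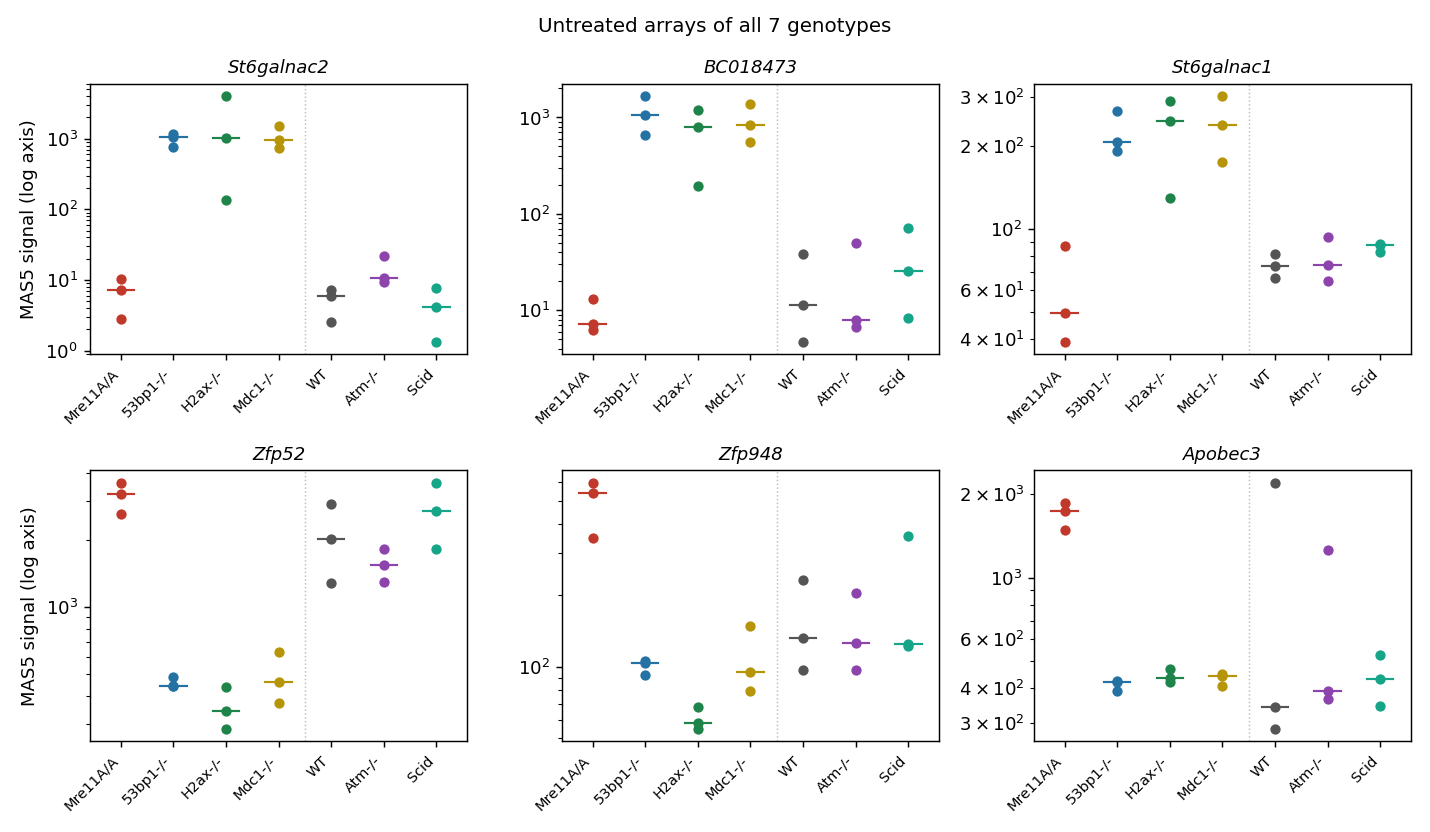
MAS5 signals on a log axis of 6 genes on the untreated arrays of all 7 genotypes, with 1 point per line and a bar at the median. Left of the dotted line are Mre11A/A and the 3 chromatin-factor genotypes. To its right are WT, Atm-/- and Scid lines, which lie below all 9 chromatin-factor arrays for St6galnac2, BC018473 and St6galnac1.

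Further large decreases were seen in single genes elsewhere in the genome. Ctse, the aspartic protease cathepsin E, read 151, 234 and 192 in Mre11A/A lines, against 2765 to 5779 (median 3702) (-4.20 ± 0.21, SE, adjusted p = 1.96e-06). Ap1s3, a subunit of the AP-1 clathrin adaptor, read 322, 321 and 493, against 2100.4 to 3281 (median 2929) (-2.86 ± 0.16, SE, adjusted p = 4.01e-06). Neither gene's groups overlapped, and both were called under each of the 28 alternatives. A second Ctse probe set had a difference of -0.005, with means of 1462 in Mre11A/A lines and 2600, 452 and 3052 in 53bp1-/-, H2ax-/- and Mdc1-/- lines. Outside these genotypes Ctse ranged widely, at 114 to 4387 in WT, 124 to 2864 in Atm-/- and 195 to 6519 in Scid lines. Ap1s3 ranged from 350 to 2154 in WT, 289 to 1675 in Atm-/- and 296 to 2046 in Scid lines.

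Ehd3, which acts in endocytic recycling, read 2.74, 9.98 and 5.46 in Mre11A/A lines, against 39.7 to 532 (median 362) (-3.85 ± 0.50, SE, adjusted p = 0.00248). Tnfrsf19, a member of the TNF receptor family, read 37.6, 88.0 and 5.87, against 286 to 852 (median 533) (-3.29, adjusted p = 0.000681). Lmo7 (-3.48) and D630039A03Rik (-3.02) fell as well, and all 4 were called without each array in turn. With the covariate for sex none of the 4 was called (adjusted p = 0.0622 for Tnfrsf19, 0.0738 for Ehd3, 0.135 for Lmo7 and 0.21 for D630039A03Rik). Acpp, an acid phosphatase (-3.33), Gulp1, an adaptor for the engulfment of dying cells (-3.26), and Pla2g7, which degrades platelet-activating factor (-3.08), were the remaining large decreases. Acpp was lost without Mre11A/A line 2 or 3, H2ax-/- line 1 or 2 or Mdc1-/- line 1 or 3 (adjusted p up to 0.143), Gulp1 without any 1 Mre11A/A line (up to 0.102) and Pla2g7 without Mre11A/A line 1 or 3 (up to 0.1). With the covariate for sex the Acpp difference was -1.64 (adjusted p = 0.625). The Acpp signal of Mre11A/A line 1 was 177, just below the lowest of the 9 others at 184, while lines 2 and 3 read 12.3 and 22.7. Lmo7, Ehd3, D630039A03Rik, Pla2g7 and Gulp1 were above the array median on chromatin-factor arrays alone (9, 8, 8, 8 and 7 of the 12). These genes thus passed the filter on low signals only through the group where they are high. On the other untreated arrays of the series Lmo7 was 32.8 to 410 in WT, 4.24 to 81.8 in Atm-/- and 2.33 to 66.0 in Scid lines.

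The 3 chromatin-factor genotypes were also compared one at a time. Against 53bp1-/- alone 81 genes were called (0.773%), against H2ax-/- alone 273 (2.61%) and against Mdc1-/- alone 208 (1.99%), comparisons that share the 3 Mre11A/A arrays. Called in the same direction against each were 43 genes (0.411% of those tested), 18 higher and 25 lower. Leaving out 1 array gave 24 to 50 such genes, and 28 or fewer without Mre11A/A line 1 or 3, 53bp1-/- line 1 or 2, H2ax-/- line 1 or 2 or Mdc1-/- line 1. Those higher included Pik3cd, the PI3 kinase catalytic subunit of leukocytes (1.08), and Hgsnat, a lysosomal acetyltransferase (2.07). Those lower included Prnp, the prion protein (-2.27), and Glo1, which detoxifies methylglyoxal (-1.07); these 4 were named after their values were seen. For 24 of the 43 the mean of untreated WT lines was nearer to the chromatin-factor lines, and for 19 nearer to Mre11A/A.

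Some called genes differed among the chromatin-factor genotypes themselves. By a moderated F test 26 of the 293 did so, against 66 of all genes (0.63%). H2bc21, a histone H2B gene, read 513, 509.8 and 558 in Mre11A/A lines and 578, 548 and 638 in 53bp1-/- lines, but 212, 183 and 240.4 in H2ax-/- and 167, 167 and 170.0 in Mdc1-/- lines. Mre11A/A thus lay 1.26 above H2ax-/- and 1.56 above Mdc1-/- lines on the log2 scale, with -0.15 against 53bp1-/-, and the genotypes differed (F test adjusted p = 0.000185). Tmem87a, a transmembrane protein, read 43.8, 34.2 and 68.9 in Mre11A/A and 14.8, 52.9 and 63.0 in H2ax-/- lines, but 1561, 1578 and 1688 in 53bp1-/- and 827, 1566 and 767 in Mdc1-/- lines (F test adjusted p = 0.000146).

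The following groups are lists of genes by function, and members named in them without a call were in part chosen after their values were seen. Early B-cell genes moved in both directions. Of 26 tested genes of the pre-B receptor and of recombination, 2 rose and 1 fell, which is 11.5% against 2.8% of all genes. Cd22, an inhibitory coreceptor of the B-cell receptor, read 5106, 7128 and 6536 in Mre11A/A lines, against 1636 to 4813 (median 2770.5) (1.18 ± 0.25, SE, adjusted p = 0.0298). Cd72, another B-cell coreceptor, rose by 1.26 with overlapping arrays, and Spn, the sialoglycoprotein CD43 of early B cells, fell by 0.41. Cd22 was lost without any 1 Mre11A/A line, 53bp1-/- line 2, H2ax-/- line 2 or Mdc1-/- line 1 (adjusted p up to 0.129). Cd72 was lost in 9 of the 12 fits that left out 1 array, and was called without Mre11A/A line 2, 53bp1-/- line 3 or Mdc1-/- line 2 (up to 0.176). Spn was lost in 9 of them too, and was called without 53bp1-/- lines 1 or 3 or H2ax-/- line 3 (up to 0.172). The list had a median of 0.07, which was -0.03 with the covariate for sex. The recombinase genes Rag1 (-1.56, adjusted p = 0.099) and Rag2 (-1.66, adjusted p = 0.166) and the N-nucleotide polymerase Dntt (-2.89, adjusted p = 0.0872) were not called, nor was Cr2 (1.41, adjusted p = 0.0552). The surrogate light chain genes Igll1 (-0.19) and Vpreb1 (-0.02) were not called. In bulk RNA, fewer cells that express a gene and less RNA of it per cell cannot be told apart.

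Of 29 transcription factors of the B lineage 1 rose and 2 fell (10.3%, against 2.8% of all genes). Bach2, a repressor that acts in B-cell development, read 4322, 6188 and 7049 in Mre11A/A lines, against 2364 to 3804 (median 3468) (0.89 ± 0.13, SE, adjusted p = 0.00461). Bcl11a, required for early B-cell formation, read 3016, 3528 and 2592, against 3240.1 to 8294 (median 6449.6) (-1.03 ± 0.20, SE), and Sox4 read 7512, 9783 and 9279, against 10858 to 14638 (median 12283) (-0.50 ± 0.09, SE). The groups did not overlap for Bach2 and Sox4, while Mdc1-/- line 2 overlapped with Mre11A/A lines for Bcl11a. With the covariate for sex Sox4 was called (adjusted p = 0.0484), while Bach2 had a difference of 0.48 and was not (adjusted p = 0.181). Bach2 was called without each array in turn, but Bcl11a was lost without any 1 Mre11A/A line (adjusted p up to 0.122) and Sox4 without Mre11A/A line 1 or 3 (up to 0.085). Ebf1 (-0.15), Pax5 (-0.19) and Ikzf1 (0.06), which set B-cell identity, were not called.

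In the list of cytokine, Stat5 and Abl signalling, 2 of 27 genes fell and 1 rose (11.1%, against 2.8% of all genes). Pim1, a survival kinase induced by Stat5, read 2688, 1896 and 2980.4 in Mre11A/A lines, against 3566 to 6775 (median 5502) (-1.06 ± 0.20, SE, adjusted p = 0.0179). Cish, a feedback inhibitor of cytokine receptors, read 2057, 1204 and 1819, against 2303 to 3511 (median 2919.6) (-0.81 ± 0.17, SE, adjusted p = 0.0254). Bcl2l1, the survival gene for Bcl-xL, went the other way and rose by 0.47 (adjusted p = 0.0353). No array of Mre11A/A overlapped the others in these 3 genes. Pim1 was lost without Mre11A/A line 1 or 2 (adjusted p up to 0.0855) and Cish without Mre11A/A line 2 or 3 (up to 0.0968), and with the covariate for sex Cish had -0.50 (adjusted p = 0.511). Bcl2l1 was lost in 9 of the 12 fits, and was called without 53bp1-/- line 3, H2ax-/- line 3 or Mdc1-/- line 2 (up to 0.162). Socs2 (0.21), Socs3 (0.07) and Myc (-0.40) were not called, and the list median of -0.03 had the other sign under 7 of 28 alternatives.

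Among 26 NF-kB targets 2 fell and none rose (7.69%, against 2.8% of all genes). The list median was -0.16, but 0.02 against Mdc1-/- lines alone. Map3k8, a kinase of inflammatory signalling, read 61.9, 122 and 74.7 in Mre11A/A lines, against 109.7 to 451 (median 295) (-1.56 ± 0.28, SE, adjusted p = 0.0159), with overlap only at Mdc1-/- line 2. Nfkbie, an inhibitor of NF-kB, fell by 0.54 (adjusted p = 0.028). Map3k8 was lost without Mre11A/A line 1 or 3 (adjusted p up to 0.079) and Nfkbie without any 1 Mre11A/A line, H2ax-/- line 2 or Mdc1-/- line 1 (up to 0.137). Tnfaip3 (-0.86), Ltb (-1.35) and Cd69 (-0.21) had differences below 0 and Nfkbia (0.23) above it, and none was called.

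No p53 target was called among 28, against 2.8% of all genes. Pmaip1, which encodes the death protein Noxa, read 1576, 1179.6 and 1279 in Mre11A/A lines, against 83.4 to 897 (median 375), so that all 3 lay above all 9, but it was not called (2.11 ± 0.68, SE, adjusted p = 0.132). The list median was 0.14 with 22 members above 0, but it was -0.09 with the covariate for sex. Mdm2 (-0.002), Bbc3 (0.08) and Ccng1 (0.08) were within 0.1 of 0 on the log2 scale, and Cdkn1a had 0.64 (adjusted p = 0.64).

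Of 13 end-joining genes 1 fell (7.69%, against 2.8% of all genes) and of 20 homologous recombination genes none was called. Xrcc5, which encodes the Ku80 subunit that binds DNA ends, read 654, 629.5 and 383 in Mre11A/A lines, against 699.5 to 1046 (median 859.9) (-0.67 ± 0.15, SE, adjusted p = 0.0353). Its groups did not overlap, but it was called in 4 of the 12 fits that left out 1 array, those without Mre11A/A line 1, 53bp1-/- line 3, H2ax-/- line 3 or Mdc1-/- line 2. Without Mre11A/A line 3 its difference was -0.43 (adjusted p = 0.115), and with the covariate for sex it was -0.40 (adjusted p = 0.58). Its partner Xrcc6 had -0.24. The Fanconi anaemia gene Fanca was nearest to a call among recombination genes (0.58 ± 0.15, SE, adjusted p = 0.0657). A second Fanca probe set had 0.06, with means of 137 in Mre11A/A lines and 131 in the others.

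The next lists hold genes of growth, division and metabolism. Of 39 G1/S and replication genes 1 rose and 1 fell (5.13%, against 2.8% of all genes). Mcm6, a subunit of the replicative helicase, rose by 0.35 and Cdk6, a G1 kinase, fell by 1.01. Mcm6 was lost without any 1 Mre11A/A line (adjusted p up to 0.0775). A second bright Mcm6 probe set had 0.10, with means of 7641 in Mre11A/A lines and 7165 in the others. Cdk6 was lost in 9 of the 12 fits that left out 1 array, and was called without H2ax-/- line 3 or Mdc1-/- lines 2 or 3 (up to 0.198). None of 31 G2/M genes was called, against 2.8% of all genes, and 27 had positive differences around a median of 0.09. Aurkb had 0.31 (adjusted p = 0.0757), and a second Aurkb probe set had -0.13. None of 26 glycolysis and hypoxia genes was called either, against 2.8% of all genes. Of these 26, 21 were at or below 0, with a median of -0.21 that became 0.08 with the covariate for sex. Sc5d rose by 0.59 and was the 1 call among 19 sterol synthesis genes (5.26%, against 2.8% of all genes). Of these 19, 13 were at or below 0 (median -0.25). A second Sc5d probe set had -0.38, and Sc5d was lost without any 1 Mre11A/A line (adjusted p up to 0.102).

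Of 20 genes of homing and adhesion 2 rose (10%, against 2.8% of all genes). The lists of antigen presentation and of heat shock and protein folding had 1 call each, among 19 and 29 genes (5.26% and 3.45%). Cd44, the hyaluronan receptor, read 974, 1465 and 1356 in Mre11A/A lines, against 6.39 to 1135 (median 92.7), and rose by 3.00 (SE 0.63, adjusted p = 0.0285). It differed widely among the others: 35.8, 92.7 and 6.39 in 53bp1-/-, 556, 296 and 1135 in H2ax-/- and 40.5, 69.4 and 472 in Mdc1-/- lines, with H2ax-/- line 3 inside the Mre11A/A range. Ccr6, a chemokine receptor of B cells, rose by 1.17, H2-M3, an MHC class Ib gene, by 0.74, and Herpud1, an endoplasmic reticulum stress gene, by 0.81. Cd44 was lost without any 1 Mre11A/A line or H2ax-/- line 1 or 2 (adjusted p up to 0.123), Ccr6 without any 1 Mre11A/A line (up to 0.128), H2-M3 without Mre11A/A line 1 or 3 (up to 0.102) and Herpud1 without Mre11A/A line 2 or 3 (up to 0.0758). None of 24 interferon genes was called, against 2.8% of all genes (Xaf1 0.93, adjusted p = 0.0502, and Gbp3 -0.60). Xaf1 averaged 364 in Mre11A/A, 288 in 53bp1-/-, 297 in H2ax-/- and 71.0 in Mdc1-/- lines. A second Xaf1 probe set went the other way (-0.86). Its means were 68.7 in Mre11A/A and 35.4, 132 and 738 in 53bp1-/-, H2ax-/- and Mdc1-/- lines. No tested marker of T cells, myeloid, erythroid, stromal or mast and NK cells was called, against 2.8% of all genes.

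**Figure D3:**
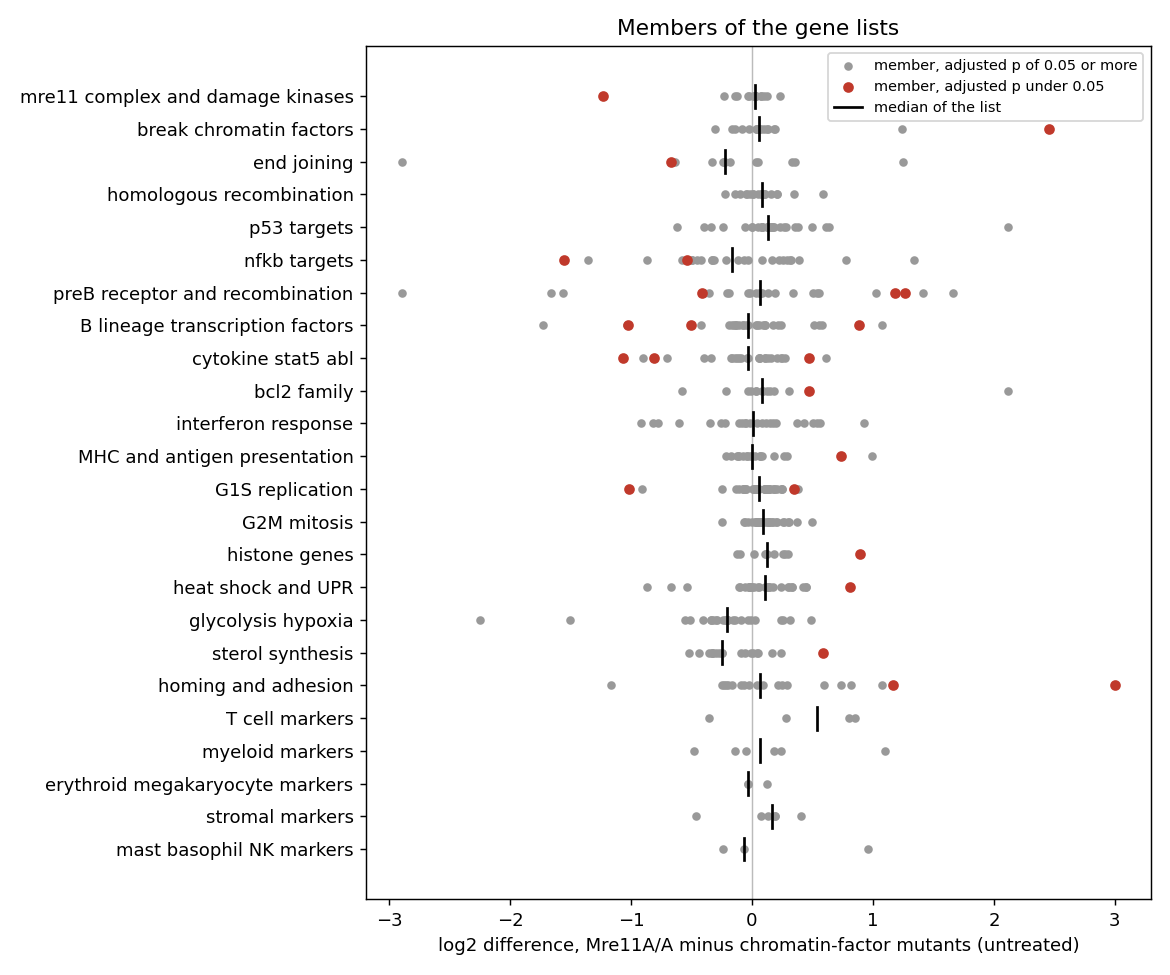
Log2 difference, Mre11A/A minus chromatin-factor mutants, of each tested member of 24 gene lists. Each point is a gene, red where its adjusted p was under 0.05, and the black bar is the list median. Every list median lies between -0.25 and 0.54. The lists with 0 calls include p53 targets and G2/M genes, against a share of 2.8% called over all genes.

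The share of called genes varied along and between chromosomes. Of the 293 calls, 57 lay next to another called gene in the order of tested genes, and 64 of 583 neighbour positions were called (10.98%, against 2.8% of all genes). They formed 25 runs, of which 12 had 1 direction. Chromosome 17 had 18 genes higher and 15 lower (5.90% of its tested genes) and chromosome 4 had 13 and 24 (5.71%), while chromosome 10 had 1 and 1 (0.382%).

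The surroundings of the mutated genes were examined because a targeted locus is inherited with its neighbours. Around Mre11a 2 of 78 tested genes were called (2.56%, against 2.8% of all genes). AB124611 read 2336, 1732 and 2314 in Mre11A/A lines, against 402 to 1582 (median 598) (1.59 ± 0.29, SE), and Zfp266 had -0.32. AB124611 was lost without Mre11A/A line 1 or 3 (adjusted p up to 0.089) and Zfp266 without Mre11A/A line 1 or 2 (up to 0.109). Around Trp53bp1 6 of 100 were called (2.8% of all genes), among them Tmem87a (-2.83), the receptor kinase Tyro3 (-1.05) and the kinetochore gene Knl1 (0.79). Against 53bp1-/- lines alone, which carry that mutation, 2 were called, beside 2 for H2ax-/- and 8 for Mdc1-/- lines. Over all genes tested the shares called differ between these comparisons. They are 0.773% against 53bp1-/-, 2.61% against H2ax-/- and 1.99% against Mdc1-/- lines. Around H2ax 8 of 100 were called, against 2.8% of all genes. The largest were Tmprss4 (-2.66), the sodium channel subunit Scn2b (-1.47) and the transcription factor Ets1 (-0.96). Against H2ax-/- lines alone 3 of the 100 neighbours were called, beside 0 for 53bp1-/- and 7 for Mdc1-/- lines. Around Mdc1 5 of 100 were called, against 2.8% of all genes, with Pla2g7, H2-M3 and the RNase P subunit Rpp21 (0.61) the largest. The counts were 4 against Mdc1-/- lines alone, 0 against 53bp1-/- and 3 against H2ax-/- lines. H2ax and Mre11a lie on the same chromosome, and Mdc1 lies on chromosome 17. A second Knl1 probe set had 0.06, with means of 978 in Mre11A/A lines and 951 in the others. Tmem87a was called without each array in turn. Tyro3 was lost without Mre11A/A line 1 or 3 (adjusted p up to 0.0862), Knl1 without Mre11A/A line 2 or 3 (up to 0.104), Scn2b without Mre11A/A line 1 (0.0796), Ets1 without Mre11A/A line 1 or 3, 53bp1-/- line 2, H2ax-/- line 1 or Mdc1-/- line 1 (up to 0.154) and Rpp21 without any 1 Mre11A/A line or H2ax-/- line 2 (up to 0.109). Tmprss4 was lost in all of the 12 fits except those without 53bp1-/- line 3 or Mdc1-/- line 3 (up to 0.15). Tmprss4 and Scn2b were above the array median on chromatin-factor arrays alone (8 and 9 of the 12). Both thus passed the filter on low signals only through the group where they are high.

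**Figure D4:**
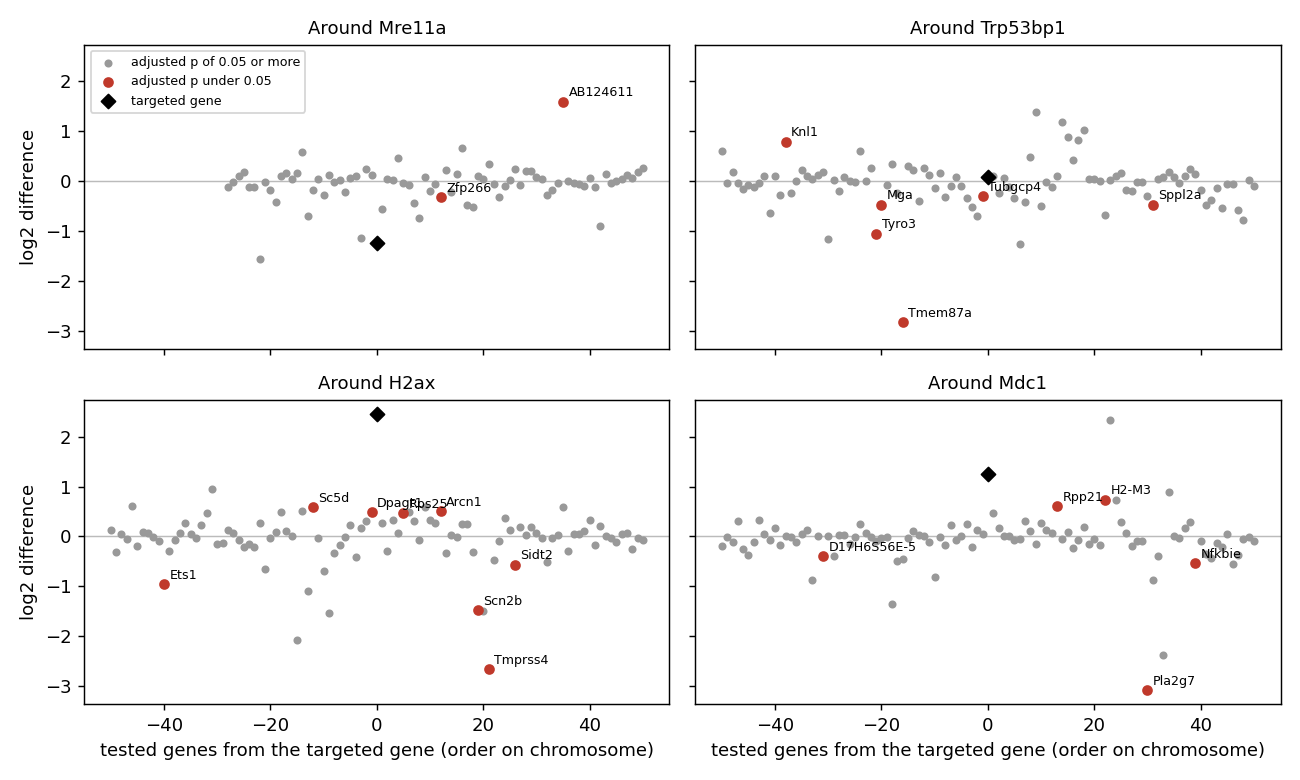
Log2 difference, Mre11A/A minus chromatin-factor mutants, of up to 50 tested genes on each side of Mre11a, Trp53bp1, H2ax and Mdc1, by their order on the chromosome. Red points had an adjusted p under 0.05 and the black diamond is the targeted gene. Around Mre11a 2 of 78 were called (2.56%, against 2.8% of all genes).

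Most of the differences had the same sign on the 1 Gy arrays of the same 12 lines, which are a second sample of each line and not new lines. On those arrays 470 genes were called (4.49%), 242 higher and 228 lower. The 202 genes called on both in the same direction are 43.0% of those on 1 Gy arrays and 68.9% of those on untreated arrays. The sign was the same for 291 of the 293. Of 55 named genes called untreated, 43 were called on the 1 Gy arrays. Zfp52 had 2.72, Apobec3 1.98, Ctse -4.11, Mre11a -1.22 and St6galnac2 -5.94 there, each called. Btla (1.94, adjusted p = 0.0844), Xrcc5 (-0.61, 0.0927), Spn (-0.13, 0.667) and Ets1 (-0.61, 0.229) were not.

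**Figure D5:**
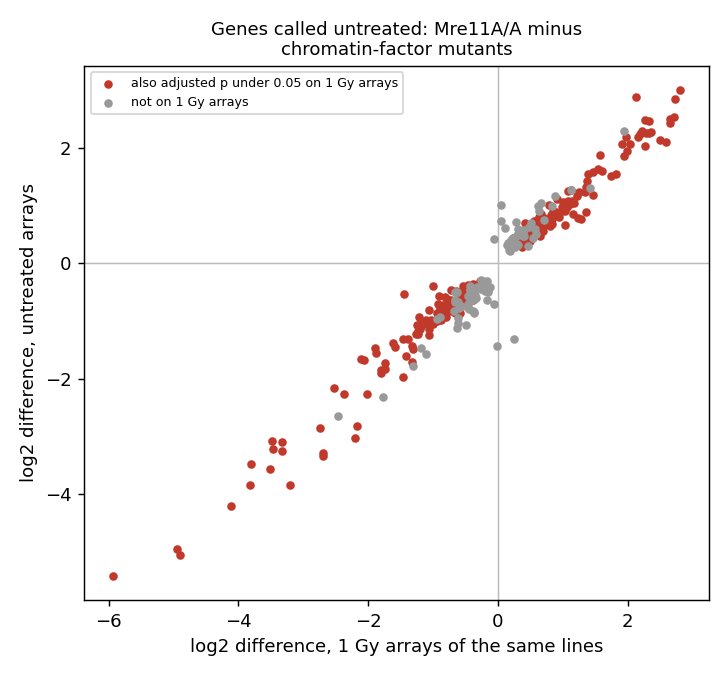
Log2 difference, Mre11A/A minus chromatin-factor mutants, of the 293 genes called on untreated arrays, on the 1 Gy arrays of the same lines (horizontal) and on the untreated arrays (vertical). Each point is a gene, red where it was also called at 1 Gy, and 291 have the same sign on both axes.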

How the data were processed

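Each deposited value is an intensity on a linear scale, made by the authors with MAS5 for 45101 probe sets, per the submitters' processing notes. The trimmed mean of every array, without the highest and lowest 2% of probe sets, was 500. Total RNA was labelled with biotin by a one-cycle method, per the labels' protocols. Arrays were placed by title into genotypes with 3 lines each.

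Probe sets with 1 symbol (34945 by the platform annotation) were kept if above their array's median on at least 3 of the 12 arrays. Genes on X or Y in RefSeq (GRCm38.p6) were left out, 327 of them past the filter, and the probe set with the highest mean stood for a gene. Values entered as log2(signal + 16) into limma 3.58.1 in R 4.3.3 (variance trend, 4 genotype means, 8 residual degrees of freedom), with two-sided p Benjamini-Hochberg adjusted over genes. For 166 called genes another kept probe set existed, and 253 of 301 such probe sets had the same sign. The fit was tested on simulated data. The data.table package (version 1.17.8) read the files, and plots used matplotlib 3.10.9, pandas 2.3.3 and numpy 2.4.6 in Python 3.11.15.

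Named genes were the targeted and related genes, the 12 largest calls each way without overlap, up to 4 called members per list (or 2 where none was called) and called neighbours of the targeted genes (up to 10 for Mre11a, 3 for each other). Other genes named were chosen after their values were seen. The members, the 24 gene lists and the tests were chosen with earlier results of these data known. Replicate numbers did not pair samples: deviations of same-numbered arrays correlated between -0.142 and 0.145, with 1 of 18 above 0.1. Alternatives changed the pseudocount, filter, scaling, model, arrays and genotypes.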

Additional observations from a re-analysis of the deposited data

Results flagged for a closer look

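For 3 of the genes named above, the difference from Mre11A/A lines depended on which chromatin-factor genotype it was set against, by a moderated F test in limma with adjustment over all genes. These were H2ax (adjusted p = 1.42e-07), low in H2ax-/- lines, Tmem87a (adjusted p = 0.000146), low in both Mre11A/A and H2ax-/- lines, and H2bc21 (adjusted p = 0.000185), high in both Mre11A/A and 53bp1-/- lines.

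A signal was seen in sex-linked genes, which were left out of the comparison. Eif2s3y reached 2799 in 1 Mre11A/A line, and Xist was as low as 4.84 in the same line. When X- and Y-linked genes were kept, 10 of them were called. Groups of 3 arrays were not examined for outlying arrays.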

How the results depend on the processing

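The count of 293 called genes was 181 in a fit of all 42 arrays, 182 with the 9 arrays as 1 group (68 higher and 114 lower), 138 without H2ax-/- lines, 33 with the sex of the line as a covariate and 470 on 1 Gy arrays. It was 630 when every kept probe set was tested and 109 with a log2 difference of at least 1 as well. The causes of these shifts were not tested, except that the last 2 change what is counted. Leaving out 1 array gave 103 to 352, with 119, 144 and 103 without Mre11A/A lines 1, 2 and 3. The count of 43 genes called against each genotype was 21 with all 42 arrays, 18 with the covariate for sex and 81 on 1 Gy arrays, and 24 to 50 without 1 array. With the replicate number as a block the counts were 248 and 36, although the numbers do not pair the samples. Pseudocounts of 1 and 64, both filters, quantile normalization, centring on the 75th percentile, the line as a random block and no variance trend gave 223 to 304 genes. Of 55 named genes called, 19 were called without each array in turn and 10 with the covariate for sex. Among the 55 called genes chosen for naming, H2ax alone changed sign under these alternatives, to a log2 difference of -0.0338 without H2ax-/- lines. Of 671 list medians under alternatives, 636 moved by less than the SD of the list's median signal over the 3 Mre11A/A lines. Signals near background have little precision, so differences of genes at a few units, such as St6galnac2 in Mre11A/A lines, are uncertain in size.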
